A study of Mus musculus with 10 samples.

Results

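The histone genes of naive CD4 T cells were examined by ATAC-seq, which counts transposase insertions in accessible chromatin. Of the 61571 nuclear peaks in the authors' table, 170 lay nearest to 1 of 64 genes whose name, in the deposited annotation or in RefSeq, begins with Hist1h to Hist4h, H2af or H3f. The deposited symbols alone matched 16 peaks of 6 genes, because most histone genes now carry newer names (H2ac, H2bc, H3c, H4c, H1f, H2az, Macroh2a), so the older names were looked up through the deposited gene number. The 170 peaks comprised 89 peaks of 41 Hist1 genes on chromosome 13 (88 peaks of 40 genes inside the Hist1 cluster and 1 peak, near H2af-ps2, outside it), 21 peaks of 9 Hist2 genes on chromosome 3, 3 peaks of 2 Hist3 genes on chromosome 11, 5 peaks of 1 Hist4 gene, 40 peaks of 8 H2af genes and 12 peaks of 3 H3f genes.

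The KO group was 5 libraries (Sample_2268_KO to Sample_2272_KO) from tamoxifen-treated mice, and the WT group was 5 libraries (Sample_2273_WT to Sample_2277_WT) from mice without treatment. All mice carried Satb1fl/fl and CD4-CreERT2wt/+, so the WT mice had floxed Satb1 and the Cre too, and tamoxifen exposure cannot be told apart from loss of Satb1. The Cre, fused to a tamoxifen-responsive estrogen receptor, is expressed under CD4 control, and Satb1 encodes a nuclear protein that binds AT-rich DNA and organises chromatin. The cells were sorted from spleen and lymph node by surface markers that included CD3+CD4+CD25-CD44low/-, 60000 per library, and the labels do not tell whether libraries come from different animals. The p-values therefore describe variation among these libraries, which may be technical.

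Replication-dependent histone genes (Hist1 to Hist4) encode the linker histone H1 and the core histones H2A, H2B, H3 and H4, lie in clusters of many near-identical copies, and are transcribed mainly in S phase. The H2af and H3f groups include genes of replacement variants such as H2A.Z, H2A.X, macroH2A and H3.3. These named variants are made throughout the cell cycle and also in resting cells, which need not hold for every gene of the groups. Many H2A and H2B genes form divergent pairs that share 1 promoter region, so that a peak between them belongs to both.

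The 4 promoters below, from RefSeq (GRCm38.p6, the build named mm10 in the labels), cover the 150 bases before the start and are shown because the results turn on them: H3c4 lies under the Hist1 peak with the largest change, H2ac6 is next to the H2bc4 peak that changed, H1f2 had the lowest p among genes that did not pass, and H3f3b carried the strongest histone peak. Capitals mark TATAAA (the TATA box), CCAAT (bound by NF-Y) and ATTTGCAT (the octamer bound by Oct1), on either strand.
H3c4 (chr13:23575613-23575762, + strand): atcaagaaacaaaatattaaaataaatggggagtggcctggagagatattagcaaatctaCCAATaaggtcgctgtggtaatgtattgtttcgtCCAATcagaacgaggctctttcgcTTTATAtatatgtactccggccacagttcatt
H2ac6 (chr13:23683960-23684109, - strand): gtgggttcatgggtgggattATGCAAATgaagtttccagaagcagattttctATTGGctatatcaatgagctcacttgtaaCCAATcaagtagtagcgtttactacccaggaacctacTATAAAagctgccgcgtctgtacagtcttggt
H1f2 (chr13:23738657-23738806, + strand): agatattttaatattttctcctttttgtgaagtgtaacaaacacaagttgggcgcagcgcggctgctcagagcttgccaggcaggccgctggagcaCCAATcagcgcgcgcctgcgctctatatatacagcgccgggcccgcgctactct
H3f3b (chr11:116024505-116024654, - strand): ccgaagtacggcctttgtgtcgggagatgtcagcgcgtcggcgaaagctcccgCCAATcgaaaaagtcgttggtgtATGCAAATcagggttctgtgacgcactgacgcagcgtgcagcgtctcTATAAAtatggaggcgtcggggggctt
The H3c4, H2ac6 and H3f3b promoters each held a TATA match, starting 32, 32 and 27 bases before the start. The H1f2 promoter held a CCAAT match 54 bases before the start and none of the other 2 motifs in these letters. Over the 300-base windows of 75 histone genes in the RefSeq table, 37 held TATAAA, against 13.6% of all 32851 promoters. CCAAT was in 63 of the 75, against 37.4% of all promoters, and the octamer in 15 of the 75, against 1.74%. The octamer was in 7 of 16 replication-dependent H2B promoters and in 7 of the other 46 replication-dependent promoters, all of H2A genes. Windows of divergent pairs such as H2ac12 and H2bc12 overlap, so the same octamer can count for both. The 250 bases before the H3c4 start were 67.2% A or T, the second highest value among the 75 histone promoters, whose median was 54.4%, against a median of 47.6% over all promoters.

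Nuclear counts in peaks ranged from 660107 to 2167685 in KO libraries and from 1009853 to 2063791 in WT libraries, and the share in promoter peaks from 58.9% to 61.7% in KO and from 59.3% to 62.2% in WT. Some library pairs within a group differed by no more than counting noise, and merging them left 3 KO and 2 WT libraries as an alternative. Levels are given as CPM, counts scaled to a common library size. All 8 naive CD4 T cell markers had peaks, and among them Il7r, which encodes the interleukin-7 receptor and is named after its values were seen, was called higher in KO by edgeR (log2 fold change 0.39, adjusted p = 9.89e-07). Of markers of other cell types, Ms4a1, Pax5, Ebf1, Lyz2, Csf1r, Ncr1, Gata1 and Hba-a1 had no peak. Peaks were present for 3 of 5 myeloid markers (44.4 to 71.8 CPM in KO against 56.4 to 69.9 CPM in WT), 3 of 4 NK markers (173 to 224 CPM in KO against 170 to 182 CPM in WT), 2 of 2 CD8 T cell markers (21.5 to 30.6 CPM in KO against 24.3 to 29.1 CPM in WT), 1 of 3 erythroid markers (46.2 to 58.4 CPM in KO against 45.1 to 54.5 CPM in WT) and the B cell marker Cd79a (2.87 to 7.66 CPM in KO against 3.83 to 6.20 CPM in WT). None of those with enough counts passed the test, and their part in the histone results was not tested. The sum over the peaks of 10 genes of dividing cells was 699 to 725 CPM in KO and 681 to 737 CPM in WT, and none of the 10 passed the test. Satb1 itself, summed over 26 peaks, had 396, 392, 392, 408 and 377 CPM in KO libraries and 331, 348, 360, 324 and 346 CPM in WT libraries (edgeR quasi-likelihood test with Benjamini-Hochberg adjustment, log2 fold change 0.19 ± 0.05 (SE), adjusted p = 0.0241). A sum over the whole gene does not show whether the floxed part was deleted, and in such bulk libraries fewer cells with an open site and less opening per cell cannot be told apart.

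Of the 170 histone peaks 105 (61.8%) were annotated as promoter, against 36.6% of all nuclear peaks. The annotated start of their own gene was covered by 48. Of 75 histone promoters in the RefSeq table, 54 had their start inside a peak, and 7 peaks covered the starts of 2 histone genes. For 14 of these starts the peak carried a different name. Among them Hist1h2an, Hist1h4m and Hist1h4n are older names of the same genes (H2ac22, H4c17 and H4c18), and the others name another gene. The 8 peaks with the highest mean CPM all lay at promoters, of variants and of a few cluster genes. Per kb of peak and averaged over all 10 libraries, the H2az1 start-site peak (H2A.Z.1) had 168 CPM, H2az2 (H2A.Z.2) 154 CPM, H3f3b (H3.3) 140 CPM and H4c1 (H4) 135 CPM, against a median of 67.8 CPM per kb over the 170 peaks. The other 4 were H3f3a (H3.3) with 115 CPM per kb, H4c14 (H4) with 106 CPM per kb, the H2bc6 peak (H2B) with 101 CPM per kb and the H2bu1-ps peak over the H2aw start with 94.2 CPM per kb.

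These strong promoters did not pass the test in either direction. The H3f3b start-site peak had 134, 126, 136, 146 and 138 CPM in KO libraries and 123, 120, 131, 148 and 124 CPM in WT libraries, and the groups overlapped. Its log2 fold change was 0.08 ± 0.09 (SE; edgeR, adjusted p = 0.761). H2az2 had 119 ± 9.16 CPM in KO against 119 ± 6.80 CPM in WT (SD, n = 5 each). H2az1 had 85.8 ± 7.32 CPM in KO against 92.4 ± 13.0 CPM in WT, and H3f3a 101 ± 9.33 CPM in KO against 112 ± 16.7 CPM in WT. H2ax, which encodes the DNA damage histone H2A.X, had 72.4 ± 5.71 CPM in KO against 68.7 ± 5.44 CPM in WT. H2aj, an H2A variant, had 57.7 ± 7.05 CPM in KO against 57.6 ± 8.29 CPM in WT. Macroh2a1, which encodes macroH2A1, had 15.3 ± 4.21 CPM in KO against 19.4 ± 1.42 CPM in WT at its start, with a log2 fold change of -0.26 ± 0.17 (SE; edgeR, adjusted p = 0.554). The strongest promoter peak of H3f4 had 47.3 ± 7.66 CPM in KO against 40.1 ± 6.05 CPM in WT, and lay 1195 bases before its start, over Trim17. Among cluster genes, the H4c1 peak had 74.3 ± 6.75 CPM in KO against 78.0 ± 12.9 CPM in WT, and the H4c14 peak 81.9 ± 6.13 CPM in KO against 78.2 ± 7.80 CPM in WT. The H2bc6 peak, which also overlaps H1f4, had 82.1 ± 6.69 CPM in KO against 77.0 ± 8.82 CPM in WT, and the H2bu1-ps peak 75.4 ± 6.60 CPM in KO against 72.2 ± 8.91 CPM in WT. Over the 16 promoter peaks of the variants the median log2 fold change was 0.01, with 9 of 16 above 0, against a median of -0.01 over all tested peaks.

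Peak by peak, 3 histone peaks were more accessible in KO and 0 were less accessible. Of the 170 peaks 119 had enough counts to test, and the 3 calls compare with 2.96% of all 34695 tested peaks called higher and 0.928% called lower, so the share of histone peaks called is near that of all peaks (2.78% of all peaks had KO libraries all above WT, as did 4 of the 119, and 1.19% all below, as did 0). Before adjustment 9 peaks had a p under 0.05 with the higher level in KO, and 1 with the lower. With the deposited symbols alone, 11 of 16 peaks were tested and 0 passed, with 0 at an unadjusted p under 0.05 in either direction.

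Of the 3, the H2ac7 peak had the largest fold. It covers chr13:23575665-23575796 and is annotated to H2ac7 (an H2A gene), 1284 bases past that gene's start, but it lies over the start of H3c4, an H3 gene whose RefSeq start is base 23575763. Counts were 12, 12, 7, 24 and 27 in KO libraries and 6, 4, 3, 8 and 5 in WT libraries, which is 8.81, 11.5, 10.7, 11.7 and 12.4 CPM in KO against 5.98, 2.03, 1.44, 5.25 and 3.10 CPM in WT. Every KO library was above every WT library. The peak rose by a log2 fold change of 1.80 ± 0.30 (SE; edgeR, adjusted p = 5.68e-06), and it had too few counts to be tested after thinning or with a mean of at least 20 counts. It entered the test through KO alone: the count filter asked for 6.34 CPM in 5 libraries, which 5 KO and 0 WT libraries reached, whereas the other 2 called peaks reached it in all 10. The H2ac7 start itself lies in a peak annotated to H2bc7, its divergent H2B neighbour, which had 30.1 ± 4.80 CPM in KO against 26.2 ± 2.05 CPM in WT (adjusted p = 0.809, edgeR).

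The H2bc4 peak, 525 bases past the start of this H2B gene (chr13:23684724-23684946), had 21.3, 14.4, 19.9, 17.6 and 19.2 CPM in KO libraries and 11.0, 9.12, 10.1, 11.2 and 13.0 CPM in WT libraries, with no overlap. Its log2 fold change was 0.78 ± 0.19 (SE; edgeR, adjusted p = 0.00343), and DESeq2 did not call it (adjusted p = 0.172), nor did edgeR on libraries thinned to equal depth (adjusted p = 0.107). Over all alternatives its adjusted p ran from 0.00188 to 0.172. The peak over the start of the neighbouring H2ac6 gene, whose promoter is printed above, had 49.5 ± 6.23 CPM in KO against 49.4 ± 5.65 CPM in WT (adjusted p = 0.933, edgeR). The annotated H2bc4 start lies inside that peak too, which overlaps both genes and carries the H2ac6 name.

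The third called peak bears the name of a histone pseudogene, Macroh2a3, but lies 41310 bases from its annotated start, inside an intron of Pvt1, a long noncoding RNA gene (chr15:62177722-62178141). It had 30.8, 26.8, 44.4, 37.1 and 30.7 CPM in KO libraries and 14.0, 10.6, 12.0, 7.87 and 11.2 CPM in WT libraries. The groups did not overlap, and the log2 fold change was 1.59 ± 0.16 (SE; edgeR, adjusted p = 2.05e-12). Macroh2a3 had 19 peaks, none at a promoter. Without them, 2 of the histone peaks passed the test.

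**Figure D1:**
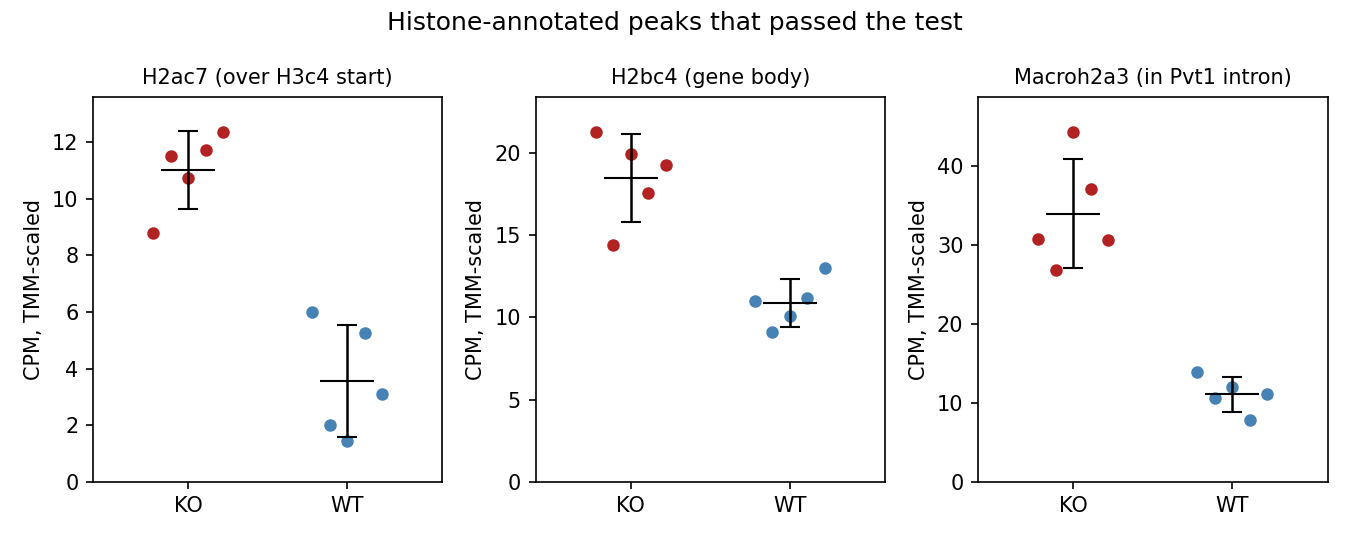
Accessibility of the 3 histone-annotated peaks that passed the test, as TMM-scaled CPM (counts scaled to library size, y axis from 0) in each KO (red) and WT (blue) library, with the mean and SD as bars. In each panel all 5 KO libraries lie above all 5 WT libraries.

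Another start site had counts in KO libraries only but was too low to enter the test. The 85-base peak over the start of Hist1h4m (H4c17 in RefSeq, an H4 gene; chr13:21811735-21811819) held 5, 0, 2, 11 and 19 counts in KO libraries and 0 counts in each of the 5 WT libraries. It is named after its values were seen. Together the KO libraries had 37 counts, and against the limit of 3 counts over the whole WT group the level was at least 13.9-fold higher in KO, a bound that covers counting error only. Without a count filter edgeR called it (adjusted p = 8.98e-07), as it did with libraries merged (adjusted p = 2.77e-05), and 1 KO library had 0. The bound and these p-values come from the counts that led to its naming and are not separate evidence. The gene lies in a part of the cluster with duplicated copies: the RefSeq windows of H2bc23 and H4bc24 are 100% identical, and reads that match several copies can be split or lost in counting. The window of Hist1h4m itself had no partner at 90% identity or more among the histone promoters. Windows were compared letter by letter without alignment, so a copy shifted by a base would be missed. Whether read matching affected its counts was not tested. The start of its neighbour Hist1h4n had 7, 10, 7, 13 and 7 counts in KO libraries and 7, 15, 12, 12 and 13 counts in WT libraries.

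The next peaks by p did not pass. The H2bc13 peak, 5746 bases past the start of an H2B gene, had 32.3, 32.6, 24.5, 23.4 and 22.9 CPM in KO against 20.9, 20.8, 19.6, 18.4 and 19.8 CPM in WT (edgeR, adjusted p = 0.132). All KO libraries were above all WT libraries there. The H1f2 peak 300 bases past the start of this linker histone gene had 15.9 ± 1.08 CPM in KO against 11.8 ± 3.15 CPM in WT (adjusted p = 0.135, edgeR). Its log2 fold change was 0.53, and -0.09 after thinning (adjusted p = 0.960), with 0.40 to 0.64 in the other alternatives. The H2bc11 peak 1047 bases past its start had 7.58 ± 3.24 CPM in KO against 3.54 ± 2.02 CPM in WT (adjusted p = 0.160, edgeR; 0.0478 without Sample_2274_WT and up to 0.713 under other alternatives). Further peaks were near H1f2 (8.83 ± 4.41 CPM in KO against 5.62 ± 1.77 CPM in WT, 6064 bases before its start) and near H4c8, over a glutamine tRNA gene (11.9 ± 4.25 CPM in KO against 7.53 ± 2.92 CPM in WT). Without Sample_2274_WT, with libraries merged or with no count filter, 5 histone peaks were called higher.

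Summed over each gene's peaks, 56 of 61 genes with a deposited symbol could be tested. H2ac7 and H2bc4 rose, each through its single peak above, and 0 fell, against 1.65% of all 12489 genes called higher and 0.536% lower (7 and 0 histone genes had an unadjusted p under 0.05). The adjusted p was 6.05e-05 for H2ac7 and 0.0110 for H2bc4 (edgeR). The H2ac7 value rests on the peak over the H3c4 start, which reached the count filter in KO libraries alone. The peaks over the H2ac7 and H2bc4 starts carry other names and are not in these sums. DESeq2 did not call H2bc4 as a gene (adjusted p = 0.181) and called Hist1h4m, described above (adjusted p = 0.0374). The median log2 fold change was 0.10, with 44 of 56 genes above 0, against a median of -0.01 over all genes, of which 48.4% were above 0. H1f2 had 142, 151, 155, 149 and 153 CPM in KO libraries and 121, 124, 134, 125 and 140 CPM in WT libraries. Its groups did not overlap, but the log2 fold change of 0.21 ± 0.07 (SE) did not pass (edgeR, adjusted p = 0.0838). H2bc13 had 83.9 ± 10.7 CPM in KO against 69.1 ± 4.26 CPM in WT, H2bc11 50.9 ± 8.61 CPM in KO against 39.4 ± 3.54 CPM in WT, H3c15 (H3) 11.2 to 17.2 CPM in KO against 7.67 to 13.2 CPM in WT, and H1f3 (linker histone) 45.9 ± 4.50 CPM in KO against 38.9 ± 6.65 CPM in WT. None of these 4 passed with all libraries, and H2bc11 passed without Sample_2271_KO (adjusted p = 0.0414, edgeR; up to 0.715 under other alternatives).

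Across the Hist1 cluster small positive differences were common. Of 69 tested Hist1 peaks 52 had a log2 fold change above 0 with a median of 0.17, against 48.9% of all tested peaks and a median of -0.01. The highest was the H2ac7 peak, and the lowest a peak 2447 bases before the start of H4c3 (an H4 gene), at -0.54, with 5.06 ± 2.38 CPM in KO against 8.24 ± 1.57 CPM in WT. Summed over its 89 peaks, Hist1 had 1774, 1853, 1908, 1727 and 1768 CPM in KO libraries and 1691, 1624, 1548, 1614 and 1670 CPM in WT libraries. The groups did not overlap, and the KO mean was 10.8% higher. Without the 2 called peaks the sums were 1698 to 1877 CPM in KO against 1537 to 1674 CPM in WT.

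**Figure D2:**
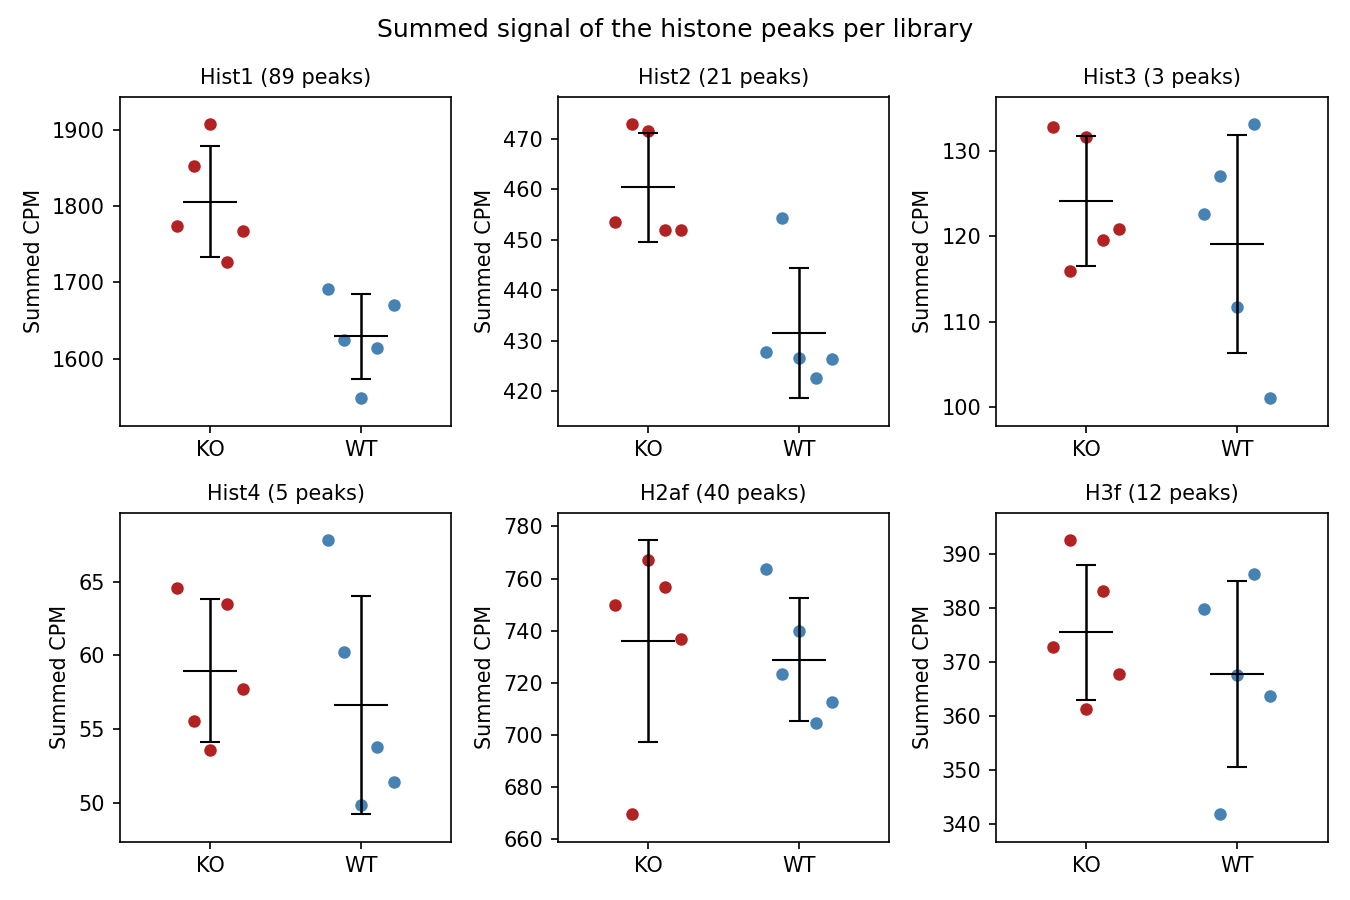
Summed CPM of the peaks of each group of histone genes in every KO (red) and WT (blue) library, with the mean and SD as bars (the y axes do not start at 0). For Hist1 all KO libraries lie above all WT libraries, and in the other 5 groups the ranges overlap.

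Every class of Hist1 gene had a higher mean sum in KO. Hist1 linker histone H1 peaks had 283 to 308 CPM in KO against 252 to 275 CPM in WT. Hist1 H2B peaks had 388 to 426 CPM in KO against 336 to 386 CPM in WT, and Hist1 H3 peaks 225 to 254 CPM in KO against 195 to 221 CPM in WT. For these 3 classes the groups did not overlap. Hist1 H2A peaks had 293 to 335 CPM in KO against 253 to 311 CPM in WT, and Hist1 H4 peaks 522 to 594 CPM in KO against 463 to 553 CPM in WT, and these overlapped. The 31 Hist1 peaks at their own gene's annotated start had 1006 to 1147 CPM in KO against 937 to 1023 CPM in WT. These overlapped, with a median log2 fold change of 0.12. The 58 other Hist1 peaks had 696 to 806 CPM in KO against 612 to 680 CPM in WT, not overlapping, with a median of 0.18. The others include the H2ac7 peak over the H3c4 start and a peak named H4c4 over an H2bc6 start. Whether the start-site peaks and the others differ was not tested.

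The Hist2 genes had summed levels of 454, 473, 472, 452 and 452 CPM in KO libraries and 428, 454, 427, 423 and 426 CPM in WT libraries. The ranges overlapped through Sample_2274_WT alone. Of 14 tested Hist2 peaks 9 were above 0, with a median of 0.04. The highest, 0.35, was a peak 12 bases past the H2ac19 start (10.6 ± 1.31 CPM in KO against 8.29 ± 0.621 CPM in WT). The lowest, -0.39, was a peak past H2bc18 (4.99 ± 2.37 CPM in KO against 7.86 ± 1.55 CPM in WT). Hist3 had 116 to 133 CPM in KO against 101 to 133 CPM in WT, and its 3 log2 fold changes ran from -0.23 at a peak before the H2bu2 start (6.01 ± 2.53 CPM in KO against 7.63 ± 2.31 CPM in WT) to 0.07 at the start itself. Hist4 had 53.6 to 64.6 CPM in KO against 49.8 to 67.8 CPM in WT. The H2af peaks without Macroh2a3 had 472 to 523 CPM in KO against 490 to 557 CPM in WT, and the H3f peaks 361 to 393 CPM in KO against 342 to 386 CPM in WT.

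**Figure D3:**
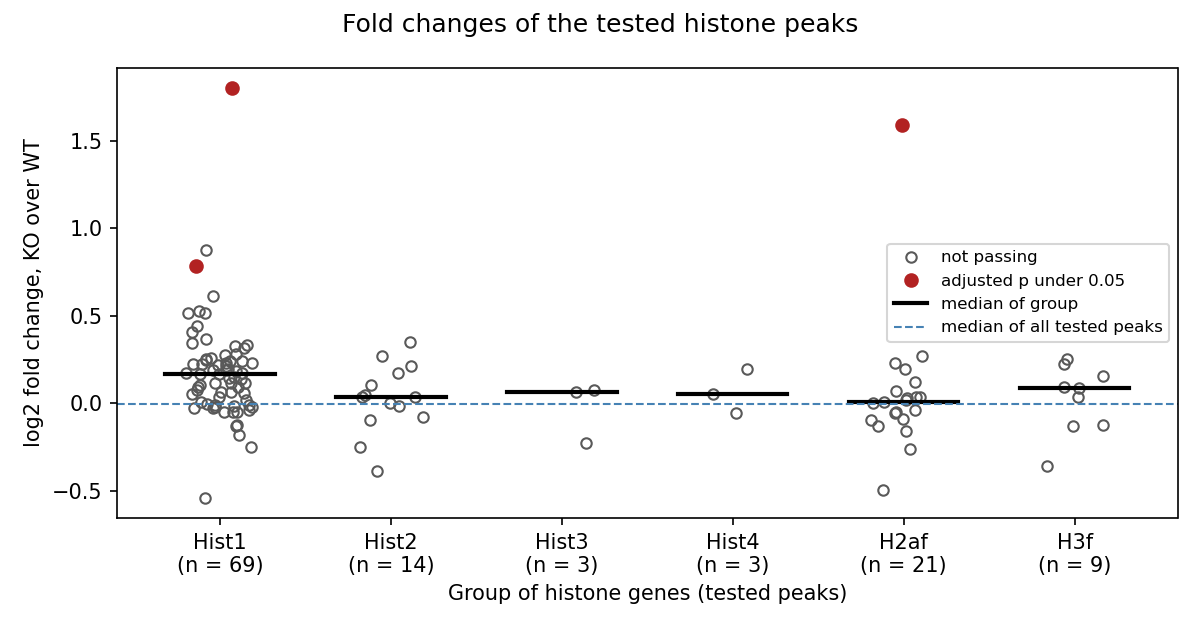
Log2 fold change, KO over WT, of each tested peak (circles; filled red where the adjusted p is under 0.05) in 6 groups of histone genes, with group medians (black) and the median of all tested peaks (dashed). The Hist1 median is 0.17, the other 5 group medians lie between 0.01 and 0.08, and the 3 filled points are all above 0.

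Neighbouring peaks of other genes were higher in KO when summed over the region, but not in every part of it. The 53 peaks that are not histone peaks between the first and last Hist1 windows (chr13:21500001-24000000) had 603 to 732 CPM in KO against 548 to 564 CPM in WT, without overlap. Of the 30 tested, 24 were above 0, with a median log2 fold change of 0.24. Of these 30, 3 were called higher, against 2.96% of all tested peaks. By 500 kb window, the median was 0.335 at 21.5 to 22 Mb, with 10 of 11 above 0. It was 0.285 at 23 to 23.5 Mb, which holds no histone peak, with 11 of 13 above 0. At 22 to 22.5 Mb it was 0.045, with 3 of 5 above 0. At 23.5 to 24 Mb the other peaks had 26.74 ± 4.30 CPM in KO against 31.55 ± 7.21 CPM in WT. The 1 tested there was at -0.107. Genes for transfer RNA lie among the histone genes: 11 Hist1 peaks overlapped one, and 9 of the 10 tested were above 0 (median 0.22), as were all 10 tested tRNA peaks of other genes in the same region. Over the genome 115 of 134 tested tRNA peaks were above 0, with a median of 0.15. Without its tRNA peaks Hist1 had 1638 to 1785 CPM in KO against 1472 to 1580 CPM in WT, still without overlap.

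Tested as 500 kb windows that sum all peaks, 2 of the 3 Hist1 windows were higher in KO, against 3.57% of all 3252 windows called higher and 1.32% lower. The window at 21.5 to 22 Mb, with 19 histone peaks of 37, had 552, 633, 640, 565 and 580 CPM in KO libraries and 497, 490, 526, 539 and 542 CPM in WT libraries. Its log2 fold change was 0.17 ± 0.04 (SE; edgeR, adjusted p = 0.0116). The window at 23.5 to 24 Mb, with 58 histone peaks of 63, had 1289, 1329, 1375, 1261 and 1277 CPM in KO libraries and 1265, 1191, 1104, 1182 and 1215 CPM in WT libraries, which overlapped in 1 WT library. Its log2 fold change was 0.12 ± 0.03 (SE; adjusted p = 0.0231, edgeR). The window at 22 to 22.5 Mb did not pass (0.19 ± 0.06, adjusted p = 0.0668, edgeR), but it did without Sample_2271_KO (adjusted p = 0.0254) or Sample_2274_WT (0.0308), and its adjusted p reached 0.295 under other alternatives. The window at 23 to 23.5 Mb, which holds no histone peak, was also higher (0.20 ± 0.06, adjusted p = 0.0293, edgeR). Neither flanking window passed. That at 21 to 21.5 Mb had 0.14 ± 0.05 (adjusted p = 0.115, edgeR), with 12 of 15 tested peaks above 0. That at 24 to 24.5 Mb had -0.12 ± 0.06 (adjusted p = 0.299, edgeR), with 6 of 8 above 0.

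**Figure D4:**
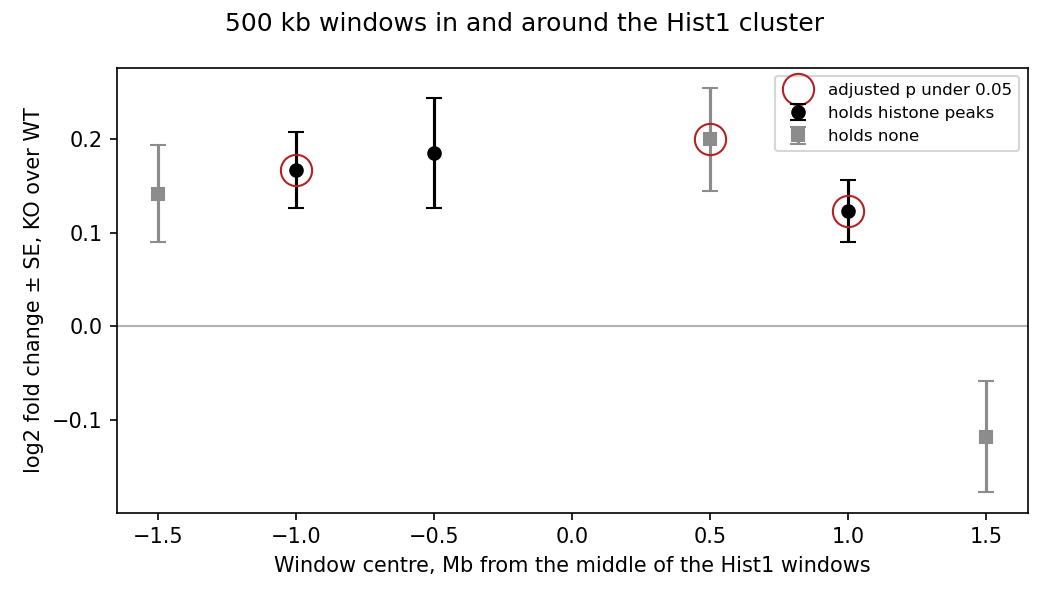
Log2 fold change, KO over WT, with its SE, of 500 kb windows on chromosome 13, placed by the distance of their centre from the middle of the windows with Hist1 peaks. Red rings mark an adjusted p under 0.05: 2 of the 3 windows with histone peaks (black) and 1 of the 3 without (grey).

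The Hist2 window on chromosome 3 (96 to 96.5 Mb) had 873 to 923 CPM in KO against 811 to 840 CPM in WT, without overlap, and a log2 fold change of 0.10 ± 0.03 (SE) that missed the threshold (edgeR, adjusted p = 0.0527). It passed with scaling to the total alone, with TMM on promoter peaks and with limma-voom. The Hist3 window on chromosome 11 (58.5 to 59 Mb) had 478 to 554 CPM in KO against 494 to 521 CPM in WT, and its log2 fold change was 0.00 ± 0.04 (adjusted p = 0.998, edgeR). The Hist1 window at 21.5 to 22 Mb lost its call without the 3 shallowest libraries (log2 fold change 0.10, adjusted p = 0.206) or with libraries merged (adjusted p = 0.0722). The window at 23.5 to 24 Mb lost it without Sample_2270_KO (adjusted p = 0.0605), Sample_2275_WT (0.0810) or Sample_2276_WT (0.0538). Over all alternatives the adjusted p ran from 0.00463 to 0.206 for the first of these windows and from 0.00457 to 0.168 for the second.

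Genes that regulate histone genes or handle histones were taken as a comparison list: transcription of the clusters (Hinfp, Casp8ap2), processing of histone mRNA (Slbp, Lsm10, Lsm11) and histone chaperones (Asf1a, Chaf1b, Hira, Nap1l4, Hjurp and others). Of 36 listed genes 34 had peaks under the listed symbol and were tested (Npat and H1fx had none), and 0 passed in either direction (edgeR; before adjustment 1 had a higher and 2 a lower level at p under 0.05). Their median log2 fold change was -0.04, with 13 of 34 above 0. The lowest p was at Casp8ap2, needed for histone gene transcription, with 79.0 ± 4.73 CPM in KO against 93.0 ± 13.1 CPM in WT (adjusted p = 0.154, edgeR).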

How the data were processed

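The authors deposited whole-number read counts per peak, not normalized, for 1 common set of 61581 peaks, and a second table with peak positions and nearest genes. Per the submitters' processing notes, the tools were bcl2fastq 2.20, Trimmomatic 0.36, Bowtie2 2.3.5, Picard, SAMtools 1.9, MACS2 2.1.2, deepTools 3.3.0 and 3.5.2, ChIPseeker 1.18.0 and DESeq2 1.22.2, on mm10. Duplicate handling, cut-site shift and pooling for peak calling are not given in the sources used here. Per the labels, libraries were single reads.

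The 10 mitochondrial peaks were left out. The 61571 nuclear peaks were tested with edgeR 4.0.16 (quasi-likelihood, TMM scaling, filterByExpr, Benjamini-Hochberg threshold 0.05), per peak, per deposited symbol and per 500 kb window, each on the whole table. CPM used the TMM-scaled nuclear total. The SE of a log2 fold change was derived from its F statistic. Sums over groups of peaks got no test. Some results for marker genes are not reported here. DESeq2 1.42.0 and limma 3.58.1 served as alternatives, and the fits were tested on simulated data. The histone genes, lists and rules were chosen with earlier results of these data known. Named were peaks and genes past the threshold, the 5 next by p, the 8 strongest peaks, the strongest promoter peak of each variant, and the extremes of each cluster. Intervals and the limit of 3 counts cover counting error only. Promoter sequences were matched by gene number for 75 of the 88 RefSeq genes that fit the rule.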

Additional observations from a re-analysis of the deposited data

Results flagged for a closer look

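Among 30 groups of 5 libraries examined for a library far from the others, 1 stood out: the summed level of the Hist2 peaks in Sample_2274_WT, at 454.3 CPM, while the other 4 WT libraries had 423 to 428 CPM. Chance alone marks about 1 in 20 such groups.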

How the results depend on the processing

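No paired analysis was possible because no replicate number is shared by KO and WT. Histone peaks called higher numbered 3 in the design as planned, 5 with no count filter or with libraries merged, 1 after thinning to equal depth, 0 with the deposited symbols alone and 3 to 5 when 1 library was left out. Taking the deposited symbols alone, and leaving out the Macroh2a3 peaks, which left 2 calls, were chosen after seeing the data. Genes called higher numbered 2, against 3 with no count filter, with libraries merged or without Sample_2271_KO, 1 with a mean of at least 20 counts and 0 after thinning. The Hist1 window at 21.5 to 22 Mb had 0.10 without the 3 shallowest libraries and 0.18 with libraries merged. That at 23.5 to 24 Mb had 0.13 thinned, 0.11 without the 3 shallowest, 0.14 merged and 0.10 to 0.14 with 1 library left out, and that at 22 to 22.5 Mb 0.15 to 0.23 with 1 left out. The Hist2 window had 0.10 under total scaling, promoter TMM and limma-voom. The Hist3 window was at -0.01 in 1 Mb windows, -0.00 unfiltered and -0.01 to 0.02 with 1 left out, and the log2 ratio of the H3f sums was -0.044 after thinning. The H1f2 peak 300 bases past its start, at 0.53, had -0.09 after thinning. Log2 fold changes near 0 changed sign: H3f3b -0.02, H2az2 0.06, H4c14 -0.08 and H2bc6 -0.00 after thinning; H2az2 0.02, H4c14 -0.00 and H4c1 0.03 without the 3 shallowest; H2aj -0.01 unfiltered, -0.01 with DESeq2 and -0.02 merged. With 1 library left out H2az2 ran from -0.03 to 0.03, H4c14 from -0.01 to 0.08, H4c1 from -0.09 to 0.02 and H2aj from -0.05 to 0.05. The cause was not tested, and thinning leaves fewer counts.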
